A study of Mus musculus with 15 samples.

Results

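The comparison described here set the ends of a cell sort of mouse skin tumours against each other, CD34+ a6-high cells and CD34- a6-low cells. Its members were chosen by the labels: all 5 libraries titled CD34+ and a6-high (3 wild type, WT, and 2 SIRT6 knockout, KO) and all 5 titled CD34- and a6-low (3 WT and 2 KO), which makes 10 of the 15 libraries of the series. The other 5, CD34- a6-high cells, took no part in the contrast. All mice were C57BL/6. All had received DMBA, which mutates DNA and so initiates tumours, with TPA, which promotes their outgrowth, for more than 24 weeks, so no untreated skin serves as a reference. KO mice carried K14-cre and SIRT6 flox/flox, which removes the gene of this histone deacetylase where the keratin 14 promoter is or has been active, that is in basal keratinocytes and their progeny. The WT label gives no Cre or floxed allele. Ages are not given in the sources used here. Nothing in the labels ties replicates to separate mice, so p-values rest only on how far these libraries differ, which may be in part technical.

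Integrin alpha 6 (a6, encoded by Itga6) pairs with integrin beta 4 in hemidesmosomes and ties basal keratinocytes to the basement membrane. Keratinocytes lose it as they leave the basal layer and differentiate. CD34 is a surface sialomucin of the hair follicle bulge, where slow-cycling stem cells reside. In mouse skin tumours raised with DMBA and TPA, CD34 together with high a6 has been used to enrich cells that can start a new tumour. The title of the series speaks of glycolytic tumour-propagating cells, and the contrast of the ends of the sort asks how the cells sorted for both surface markers differ from those sorted for neither.

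Levels are given as CPM, gene counts per 1000000 counts of a library after TMM scaling, and within a genotype the values stand in the order of the replicate numbers. CPM is not divided by gene length, so levels are compared between libraries and not between genes. Each library held 10.08 to 28.62 M gene counts (M, 1000000) and 15885 to 19380 detected genes, and the depth of CD34+ libraries (13.28 to 21.70 M) lay within that of a6-low libraries (10.08 to 28.62 M). The keratinocyte gene Krt14 lay at 28325 to 60180 CPM in CD34+ and at 31910 to 53045.0 CPM in a6-low libraries, and the basal factor gene Trp63 at 177 to 231 and 153 to 263 CPM. Ptprc, the leukocyte gene that encodes CD45, reached at most 1.23 CPM. Sirt6 lay at 5.07 to 9.60 CPM in CD34+ and 7.23 to 10.5 CPM in a6-low libraries of both genotypes, with overlap of KO and WT. The floxed exons are not named in the labels, so these counts do not check the genotype.

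The sort genes were described first, without a test, since they chose the cells. Cd34 (ENSMUSG00000016494) stood at 197, 163 and 214 (WT) and 178 and 174 (KO) CPM in CD34+ libraries and at 40.3, 10.3 and 15.5 (WT) and 4.51 and 27.7 (KO) CPM in a6-low libraries. Every CD34+ library lay above every a6-low library. Itga6 (ENSMUSG00000027111) stood at 558, 387 and 263 (WT) and 321 and 576 (KO) CPM in CD34+ libraries and at 471, 94.1 and 174 (WT) and 67.9 and 445 (KO) CPM in a6-low libraries. In Itga6 RNA the a6-low libraries of WT replicate 1 and KO replicate 2 thus lay inside the range of the a6-high libraries. The other 3 lay below it. The labels refer to a sort by surface protein, which RNA levels do not measure. The a6-low libraries of WT replicate 1 and KO replicate 2 also held less of the suprabasal keratin gene Krt10, with 2837 and 1833 CPM. The other 3 held 5777 to 12271 CPM. The libraries of KO replicate 2 held the Y-linked gene Ddx3y at 51.9 to 74.9 CPM, and the other 12 at 0.222 CPM or less. Results are therefore also given without the 2 a6-low libraries and without the 3 libraries of KO replicate 2, choices made after the values were seen.

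**Figure D1:**
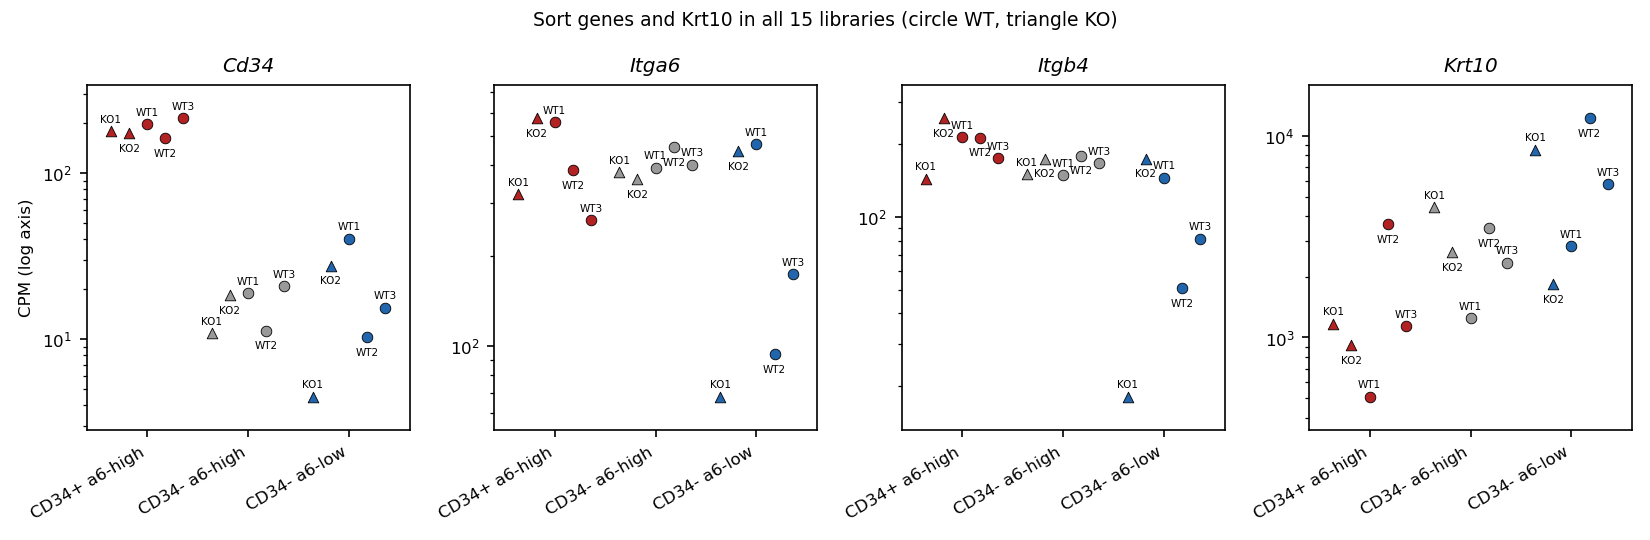
CPM of Cd34, Itga6, Itgb4 and Krt10 (log axis) in all 15 libraries by sorted population, circles for WT and triangles for KO, each point labelled with its genotype and replicate number. Cd34 separates the 5 CD34+ libraries from all others, whereas Itga6 is low in 3 of the 5 a6-low libraries and at the a6-high level in WT replicate 1 and KO replicate 2.

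In CD34+ a6-high cells 12 of 29 glutathione and antioxidant genes and 4 of 30 cell division genes rose, while 6 of 23 regulators of keratinocyte differentiation and 3 of 15 immediate early genes fell. The cystine transporter Slc7a11, glutamate-cysteine ligase and the transferase Gsto1 were among the first, and the factors Ehf, Elf3 and Gata3 among the third. Of 14652 genes tested, 722 passed an adjusted p of 0.05 (4.93%), 330 higher (2.25%) and 392 lower (2.68%) in CD34+ cells (quasi-likelihood test of edgeR on the average of both genotypes' differences, Benjamini-Hochberg adjustment). Of the 330 that rose, 234 did so more than 2-fold and 89 more than 4-fold, and of the 392 that fell, 290 and 123. In 704 of the 722 the difference had the same sign in all 5 pairs of same-numbered libraries. In 548 the CD34+ and a6-low libraries did not overlap, against 1013 of all tested genes (6.91%), 476 of them higher (3.25%) and 537 lower (3.67%). Both genotypes moved in the same direction in all 722. The median log2 difference of all tested genes was -0.02, and 47.9% of them were higher in CD34+ cells. Since each library is bulk RNA of sorted cells, fewer cells of a kind and less RNA per cell cannot be told apart.

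The number of genes called depended on the design and on single libraries. DESeq2, a second count model, called 1596 genes (10.9%), 729 higher (4.98%) and 867 lower (5.92%). With genotype and replicate number as a block, 1733 genes passed (11.8%), 832 higher (5.68%) and 901 lower (6.15%), among them 717 of the 722, and 3159 genes had an unadjusted p under 0.05 without the block. Without the CD34+ library of KO replicate 1 only 41 genes passed, and without that of KO replicate 2, WT replicate 3 or WT replicate 1 the count was 168, 271 or 448. Leaving out the a6-low library of WT replicate 2 or WT replicate 3 gave 372 or 429 genes. Without the 2 a6-low libraries with high Itga6, 979 genes passed (6.37%), 581 higher (3.78%) and 398 lower (2.59%), 443 of them among the 722, and without the 3 libraries of KO replicate 2, 116 passed, of which 79 were among the 722. No gene of the 722 that was still tested changed its direction under any of these settings.

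**Figure D2:**
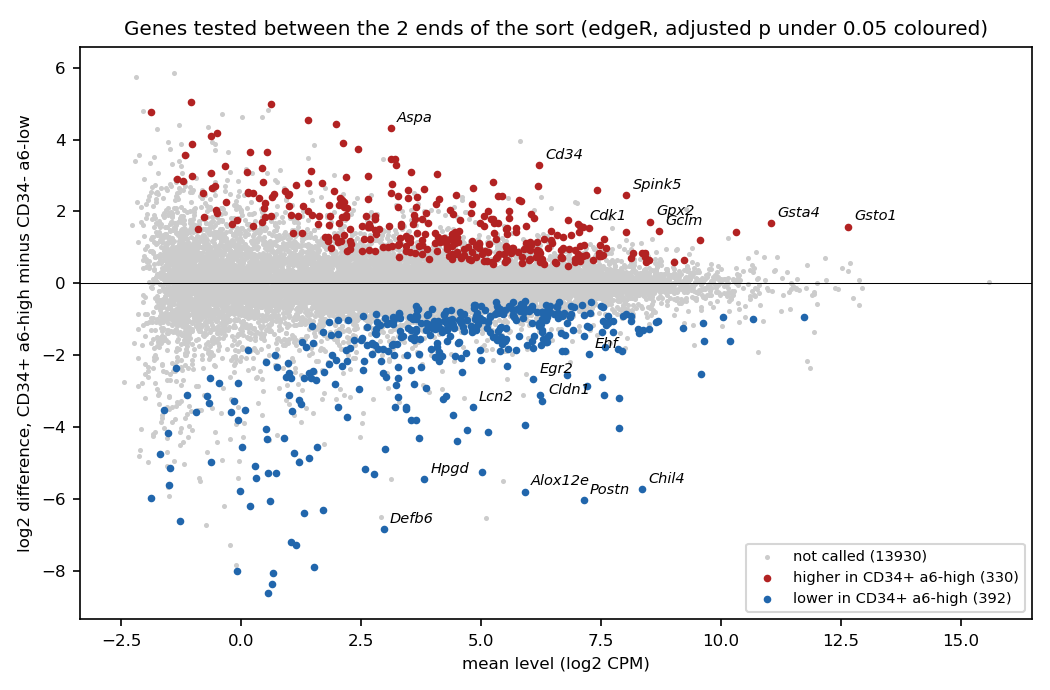
Log2 difference between CD34+ a6-high and CD34- a6-low libraries against the mean level (log2 CPM) of the 14652 tested genes, with the 330 genes that rose in red, the 392 that fell in blue and those not called in grey. Among the genes named by the rule, which asks for a mean level of at least 2 on the log2 CPM scale, the falls of Defb6, Postn, Alox12e, Chil4 and Hpgd exceed the rise of Aspa in size.

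Genes were named by size among those that passed with a mean level of at least 2 on the log2 CPM scale and the same sign in all 5 pairs, so genes of lower level with larger fitted differences are left out. Among the 12 largest rises by this rule, Aspa, which encodes aspartoacylase, an enzyme that splits N-acetylaspartate, came first. It stood at 10.4, 24.0 and 20.1 (WT) and 34.1 and 24.5 (KO) CPM in CD34+ and at 1.60, 0.444 and 1.99 (WT) and 0.363 and 1.53 (KO) CPM in a6-low libraries. No library of one population reached the range of the other, and CD34- a6-high libraries lay at 1.39 to 2.45 CPM, near the a6-low level (log2 difference 4.32 ± 0.47 SE, adjusted p = 0.0028, edgeR, as in all such brackets). Hmga2, a chromatin protein gene of fetal and tumour cells, stood at 29.2, 13.9 and 9.43 (WT) and 8.69 and 43.0 (KO) against 3.24, 0.555 and 0.513 (WT) and 0.182 and 4.73 (KO) CPM. Its libraries did not overlap either, and in both populations WT replicate 1 and KO replicate 2 were the highest (log2 3.46 ± 0.83, adjusted p = 0.0362). Gap43, known as a growth cone protein gene, stood at 24.9, 8.58 and 4.76 (WT) and 3.02 and 22.9 (KO) against 1.55, 0 and 0.833 (WT) and 0.327 and 1.82 (KO) CPM and was likewise highest in WT replicate 1 and KO replicate 2 of both populations (log2 3.74 ± 0.93, adjusted p = 0.0403).

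Genes of lipid and amino acid handling were also among the 12. Fads2, which encodes a desaturase of polyunsaturated fatty acids, stood at 12.2, 3.56 and 12.6 (WT) and 20.2 and 25.9 (KO) against 1.60, 0.333 and 1.41 (WT) and 1.45 and 4.52 (KO) CPM. Its CD34+ library of WT replicate 2 lay below the highest a6-low library, so the populations overlapped (log2 2.98 ± 0.57, adjusted p = 0.0173). Slc38a4, an amino acid transporter gene, stood at 220.1, 142 and 117 (WT) and 133 and 198 (KO) against 42.2, 11.3 and 7.75 (WT) and 3.63 and 57.0 (KO) CPM without overlap, and the highest a6-low values were again those of WT replicate 1 and KO replicate 2 (log2 2.70 ± 0.67, adjusted p = 0.0401). Wfdc2, which encodes a secreted protein with a whey acidic protein fold, stood at 21.5, 31.3 and 49.4 (WT) and 34.4 and 51.5 (KO) against 9.03, 2.11 and 4.87 (WT) and 1.45 and 6.47 (KO) CPM (log2 3.04 ± 0.49, adjusted p = 0.0101). The keratin gene Krt42 averaged 87.7 ± 49.6 against 12.4 ± 8.31 CPM (mean ± SD, n = 5 and 5, as in all such averages) (log2 2.82 ± 0.46, adjusted p = 0.0111), the carboxylesterase gene Ces1g 10.9 ± 6.77 against 0.682 ± 0.812 CPM, the peptidyl arginine deiminase gene Padi4 18.5 ± 6.45 against 2.75 ± 2.31 CPM, Ttc9 23.3 ± 9.10 against 2.78 ± 2.596 CPM, Upk3bl 19.8 ± 5.19 against 1.96 ± 2.06 CPM and Klra4, of the Ly49 receptor family, 20.3 ± 6.34 against 1.87 ± 1.94 CPM. Klra4 and Ces1g have closely similar copies elsewhere in the genome, so their levels are uncertain.

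The 12 largest falls by the same rule included genes of the matrix, of lipid mediators and of defence. Defb6, a beta-defensin gene, stood at 0.287, 0.364 and 0.0820 (WT) and 0.252 and 0 (KO) CPM in CD34+ and at 9.36, 59.4 and 7.05 (WT) and 31.7 and 5.14 (KO) CPM in a6-low libraries. The 5 CD34+ libraries together held 18 of its counts and the a6-low libraries 1839 (log2 -6.84 ± 0.93, adjusted p = 0.00732). Postn (ENSMUSG00000027750), which encodes the matrix protein periostin, stood at 6.17, 1.45 and 0.574 (WT) and 1.01 and 8.68 (KO) against 285, 238 and 268 (WT) and 215 and 227 (KO) CPM. All 5 a6-low libraries were within a narrow range, including the 2 with high Itga6, while the 5 CD34- a6-high libraries spread from 7.90 to 262 CPM (log2 -6.02 ± 0.95, adjusted p = 0.0101). Hpgd, the gene of the dehydrogenase that inactivates prostaglandins, stood at 0.287, 1.09 and 0 (WT) and 0.252 and 1.14 (KO) against 30.7, 13.3 and 26.1 (WT) and 32.9 and 19.3 (KO) CPM, again without overlap (log2 -5.44 ± 0.81, adjusted p = 0.00922). Alox12e, an epidermal lipoxygenase gene, stood at 3.21, 2.18 and 0.984 (WT) and 1.81 and 4.11 (KO) against 51.3, 122 and 28.5 (WT) and 545 and 42.8 (KO) CPM, and KO replicate 1 was the highest of the a6-low libraries (log2 -5.79 ± 0.89, adjusted p = 0.00964).

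Several falls were far larger in 1 or 2 a6-low libraries than in the rest. Chil4, a chitinase-like protein gene, stood at 19.7, 1.24 and 0 (WT) and 9.53 and 3.61 (KO) against 172, 34.1 and 17.1 (WT) and 2485 and 1022 (KO) CPM. Only the KO a6-low libraries passed 1000 CPM, and the lowest a6-low library lay under the highest CD34+ library (log2 -5.71 ± 1.48, adjusted p = 0.0454). Cxcl9, a chemokine gene induced by interferon gamma, stood at 0.574, 0.509 and 0 (WT) and 3.27 and 0.411 (KO) against 8.47, 10.8 and 6.73 (WT) and 234 and 8.09 (KO) CPM, with KO replicate 1 far above the other a6-low libraries (log2 -5.23 ± 1.14, adjusted p = 0.0261). Sprr2a3, of the small proline-rich proteins of the cornified envelope, averaged 32.2 ± 17.0 against 438 ± 464 CPM, the serpin gene Serpinb3d 0.818 ± 0.727 against 19.2 ± 13.7 CPM, Skint1, an immunoglobulin-like gene of keratinocytes, 2.36 ± 1.60 against 46.7 ± 34.9 CPM, the ribonuclease gene Rnase1 5.08 ± 3.52 against 80.7 ± 73.7 CPM, the oligoadenylate synthetase family gene Oas1f 1.56 ± 1.24 against 31.0 ± 31.6 CPM and the sialic acid lyase gene Npl 5.66 ± 4.93 against 49.7 ± 44.4 CPM. Adjusted p-values of these 6 lay between 0.0125 and 0.0347. The Sprr2a, Serpinb3, Skint, Oas1 and Chil genes form families of closely similar copies, so which copy the reads came from is uncertain.

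**Figure D3:**
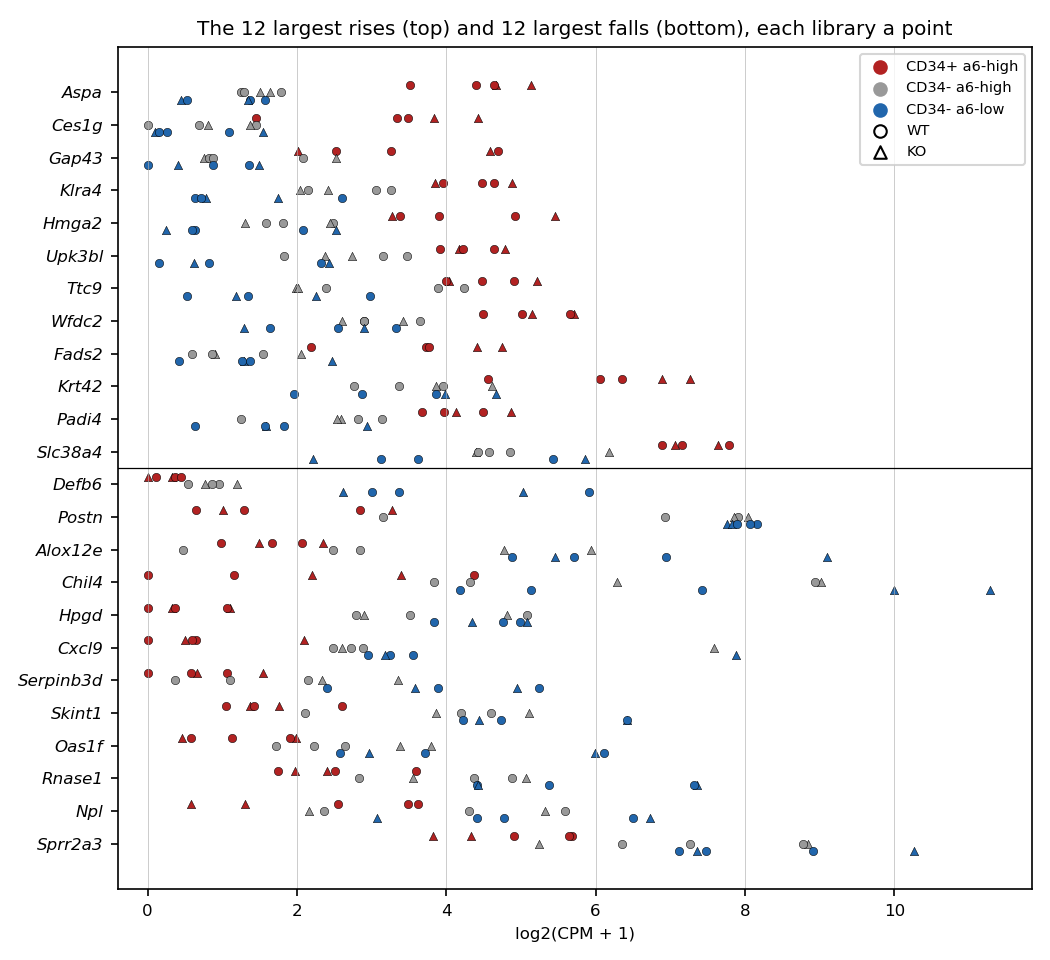
Level of the 12 largest rises and 12 largest falls in each of the 15 libraries on a log2(CPM + 1) scale, by population (colour) and genotype (circle WT, triangle KO). For Aspa and Postn the red and blue points do not overlap, and for Chil4 and Alox12e the blue points spread widely, with KO replicate 1 farthest to the right.

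Of the 24 genes just named, 20 lost the call without the CD34+ library of KO replicate 1, 16 without that of KO replicate 2 and 15 without all 3 libraries of KO replicate 2, whereas 1 lost it without the 2 a6-low libraries with high Itga6. The direction of each of the 24 was kept throughout.

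Where the middle population stood was taken from its means. Of the 330 genes that rose, 246 had a CD34- a6-high mean nearer to the a6-low end than to the CD34+ end on the log2(CPM + 1) scale, as had 230 of the 392 that fell. These are levels of libraries that took no part in the contrast, and no test was made on them.

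Glutathione is the main thiol of the cell. Glutamate-cysteine ligase (Gclc and Gclm) and glutathione synthetase (Gss) make it from cystine that the transporter Slc7a11 brings in, glutathione reductase (Gsr) recycles it, and transferases and peroxidases use it to remove electrophiles and peroxides. Many of these genes are known targets of the factor NRF2, which binds antioxidant response elements with the core TGACNNNGC as a heterodimer with small MAF proteins. Of 29 tested glutathione and antioxidant genes 12 rose and 0 fell, where 2.25% of all genes rose, and 21 were higher. Over its tested members the median log2 difference came to 0.39.

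Promoter stretches are shown for the only 2 members that rose and hold this core within 250 bases before their start, Gclm and Gsta3, with the core in capitals, read 5′ to 3′ along the strand of the gene (RefSeq, GRCm38.p6). The Gclm stretch lies at chr3:122245363-122245491 on the plus strand, with the core read on the opposite strand, and the Gsta3 stretch at chr1:21240404-21240532 on the plus strand.
Gclm: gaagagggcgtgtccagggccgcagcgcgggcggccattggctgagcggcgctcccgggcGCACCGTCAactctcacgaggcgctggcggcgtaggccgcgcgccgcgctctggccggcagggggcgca
Gsta3: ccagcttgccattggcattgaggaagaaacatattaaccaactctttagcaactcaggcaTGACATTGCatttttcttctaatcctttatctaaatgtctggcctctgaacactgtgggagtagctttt
The core is in 7 of 25 list genes with an entry in the promoter table (28.0%) and in 11.5% of 27025 genes. Of the 9 rising genes with an entry, 7 do not hold it in this window. It was 1 of 8 motifs searched in 4 gene lists on both strands, and the list share was above the share of all genes in 15 of these 32 pairs. The pair shown was chosen after the shares were seen, and TGACNNNGC matches are also matches of the looser TGANNNNGC, which 52.0% of these list genes and 38.7% of all genes hold. The others were the AP-1 site TGACTCA and its looser form TGANTCA, which overlap, the cell cycle gene homology region TTTGAA, the E2F site TTCGCGC, the E-box CACGTG and the EGR site GCGGGGGCG.

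Among the members that rose were genes of glutathione synthesis, of cystine uptake and of glutathione recycling. Gclm stood at 614, 403 and 545 (WT) and 873 and 999.8 (KO) CPM in CD34+ and 201, 204 and 266 (WT) and 235 and 350.2 (KO) CPM in a6-low libraries without overlap (log2 1.45 ± 0.21, adjusted p = 0.00922). Gclc, the catalytic subunit gene, stood at 126, 63.7 and 149 (WT) and 329.8 and 213 (KO) against 68.2, 40.0 and 62.9 (WT) and 96.3 and 80.6 (KO) CPM, and its CD34+ library of WT replicate 2 lay inside the a6-low range (log2 1.30 ± 0.25, adjusted p = 0.0173). Slc7a11 stood at 72.9, 9.38 and 43.5 (WT) and 148 and 117 (KO) against 12.2, 13.8 and 10.7 (WT) and 40.7 and 14.9 (KO) CPM. Its WT replicate 2 was lower in CD34+ than in a6-low cells, opposite to the other 4 pairs, and its call was marginal (log2 2.02 ± 0.54, adjusted p = 0.04997). Gss averaged 96.9 ± 18.7 against 59.9 ± 8.35 CPM and Gsr 264 ± 79.0 against 90.2 ± 38.5 CPM, both without overlap of the libraries.

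Of the genes that use glutathione, Gsto1 (ENSMUSG00000025068), an omega-class transferase, stood at 14894, 8783 and 11457 (WT) and 11823 and 10529.5 (KO) against 3851, 4139.6 and 4021 (WT) and 4101 and 3207 (KO) CPM. Each CD34+ library held more than 2 times the level of the highest a6-low library, and the a6-low libraries lay close together (log2 1.58 ± 0.17, adjusted p = 0.0028). Gsta4, the transferase of lipid aldehydes, stood at 4744, 2876 and 4560.0 (WT) and 4000.1 and 3414 (KO) against 1065, 1575 and 1259 (WT) and 1593 and 706 (KO) CPM without overlap (log2 1.67 ± 0.25, adjusted p = 0.00936). Gpx2, a peroxidase gene of epithelia, stood at 769.9, 404 and 898 (WT) and 907 and 623 (KO) against 209, 253 and 212 (WT) and 285 and 149 (KO) CPM, also without overlap (log2 1.72 ± 0.31, adjusted p = 0.0156). Gsta3 stood at 33.8, 3.20 and 22.8 (WT) and 66.1 and 39.5 (KO) against 4.51, 7.21 and 3.52 (WT) and 5.49 and 5.68 (KO) CPM, where WT replicate 2 again went the other way (log2 2.61 ± 0.49, adjusted p = 0.0156). Gstp1 averaged 214 ± 42.9 against 139 ± 8.05 CPM and rose 1.58-fold.

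Nqo1, a quinone reductase gene, stood at 486, 201 and 325 (WT) and 469 and 625 (KO) against 225, 238 and 231 (WT) and 250.2 and 248 (KO) CPM, and the catalase gene Cat averaged 168 ± 77.5 against 88.3 ± 11.99 CPM. Both rose (adjusted p = 0.0409 and 0.0178), and in both WT replicate 2 was lower in CD34+ than in a6-low cells. The pair of WT replicate 2 stood apart over the whole list, with a median difference in log2(CPM + 1) of -0.15 against 0.34 to 0.81 in the other 4 pairs. With the block 5.68% of all genes rose. By setting, 3 members rose without the CD34+ library of KO replicate 1 and 3 without the libraries of KO replicate 2, 8 rose and 2 fell without the 2 a6-low libraries, and 13 rose with the block.

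The cell division genes were higher in CD34+ than in a6-low cells as a list and few passed alone. All 30 tested members were higher, 4 rose and 0 fell, against 2.25% of all genes that rose, with a median log2 difference of 0.87. With the block 19 of them rose, against 5.68% of all genes. Their summed level was 2880 to 4173 CPM in CD34+, 1179 to 2930 CPM in a6-low and 2047 to 4581 CPM in CD34- a6-high libraries. In WT replicates 1 and 3 the CD34- a6-high library was above the CD34+ library (4143 against 3957 and 4581 against 4173 CPM). In WT replicate 2 and both KO replicates it was below. Cyclin-dependent kinase 1, encoded by Cdk1, drives entry into mitosis, cyclin E1 (Ccne1) entry into S phase, and the kinases Plk1 and Aurkb the steps of mitosis. Cdk1 stood at 230.0, 224 and 249 (WT) and 207 and 149 (KO) CPM in CD34+ and 109, 38.8 and 117 (WT) and 62.9 and 42.7 (KO) CPM in a6-low libraries without overlap (log2 1.58 ± 0.29, adjusted p = 0.0156). Ccne1 stood at 70.0, 68.8 and 80.3 (WT) and 73.7 and 68.5 (KO) against 27.6, 17.4 and 33.9 (WT) and 38.0 and 21.2 (KO) CPM, with CD34+ libraries close together (log2 1.37 ± 0.27, adjusted p = 0.018). Aurkb stood at 92.4, 75.2 and 82.6 (WT) and 90.9 and 47.8 (KO) against 46.6, 9.87 and 39.0 (WT) and 25.6 and 23.6 (KO) CPM without overlap (log2 1.44 ± 0.36, adjusted p = 0.0403), and Plk1 at 96.5, 113 and 142 (WT) and 148 and 50.7 (KO) against 36.2, 14.98 and 54.2 (WT) and 40.1 and 14.2 (KO) CPM, where KO replicate 2 of CD34+ cells lay under WT replicate 3 of a6-low cells (log2 1.80 ± 0.45, adjusted p = 0.0401).

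The pair medians of the cell division list were 0.36, 1.89 and 0.45 in WT and 0.99 and 0.80 in KO, so that WT replicate 2 had the largest difference here. No member passed without the CD34+ library of KO replicate 1, or without the libraries of KO replicate 2, and 2 passed without the 2 a6-low libraries. Rbl1, of the retinoblastoma family and counted among 11 cell cycle inhibitor genes, was the only one of these to rise, at 58.2, 52.7 and 54.4 (WT) and 55.0 and 51.7 (KO) against 43.2, 26.1 and 42.0 (WT) and 26.6 and 24.4 (KO) CPM (log2 0.82 ± 0.16, adjusted p = 0.0194). With the block 2 inhibitor genes rose and 3 fell, against 5.68% and 6.15% of all genes. The promoter of Cdk1 is shown since TTTGAA is the core of the cell cycle gene homology region of many mitotic genes. The stretch at chr10:69352918-69353043 on the minus strand holds it 2 times, in capitals.
Cdk1: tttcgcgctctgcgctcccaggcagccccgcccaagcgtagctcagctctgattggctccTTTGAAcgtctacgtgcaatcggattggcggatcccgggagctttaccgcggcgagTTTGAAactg
TTTGAA is in 7 of 25 list genes with an entry (28.0%) and in 18.3% of all genes, and in 1 of the 3 rising genes with an entry. This pair too was chosen after the 32 shares were seen. Most list genes do not hold it in this window, from which nothing follows about the factors that bind there.

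Most regulators of keratinocyte differentiation were lower in CD34+ than in a6-low cells. Of 23 tested members 0 rose and 6 fell, against 2.68% of all genes that fell (6.15% with the block). Of the 23, 18 were lower, and the median log2 difference was -0.54. Every pair had a negative list median, from -0.83 to -0.40. The summed level was 1915 to 2547 CPM in CD34+, 2690 to 4843 CPM in a6-low and 1762 to 2801 CPM in CD34- a6-high libraries. By this sum the CD34- a6-high cells were thus about as low as CD34+ cells. For Ehf, Elf3 and Gata3 the CD34- a6-high means (148, 98.6 and 66.2 CPM) lay between those of the ends. The ETS factor gene Ehf stood at 45.7, 124 and 91.1 (WT) and 37.3 and 50.0 (KO) CPM in CD34+ and 187, 283 and 150.1 (WT) and 199 and 365 (KO) CPM in a6-low libraries without overlap (log2 -1.97 ± 0.31, adjusted p = 0.0101). Elf3, also an ETS factor gene of epithelia, stood at 30.8, 52.4 and 43.8 (WT) and 51.4 and 46.3 (KO) against 83.2, 152 and 101 (WT) and 269 and 229 (KO) CPM, with the KO a6-low libraries highest (log2 -1.88 ± 0.34, adjusted p = 0.0156). Gata3, whose product acts in epidermal and hair follicle lineages, stood at 19.6, 38.3 and 23.5 (WT) and 19.1 and 39.5 (KO) against 113, 59.7 and 51.7 (WT) and 102 and 128 (KO) CPM without overlap (log2 -1.72 ± 0.30, adjusted p = 0.0143). Vdr, the vitamin D receptor gene, averaged 47.1 ± 9.44 against 100.3 ± 25.5 CPM and Ovol1, which encodes a zinc finger repressor, 297 ± 49.4 against 608 ± 176 CPM, and both fell. The list had 11 falls with the block, 6 falls and 1 rise without the 2 a6-low libraries, and none without the CD34+ library of KO replicate 1 or without the libraries of KO replicate 2.

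Structural genes of differentiation went both ways. Of 31 tested spinous and granular genes 1 rose and 2 fell, against 2.25% and 2.68% of all genes. With the block 4 rose and 7 fell, against 5.68% and 6.15%. In the unblocked fit 15 were higher and 16 lower, and the median was -0.13. The gene that rose, Spink5, encodes a protease inhibitor that restrains desquamation and stood at 342, 182 and 299 (WT) and 1225 and 792 (KO) against 108, 47.9 and 55.9 (WT) and 125 and 135 (KO) CPM. Its KO CD34+ libraries were the highest, and no libraries overlapped (log2 2.46 ± 0.30, adjusted p = 0.00602). Besides Alox12e, Sprr2a1 fell, with 8 counts in the 5 CD34+ and 243 in the 5 a6-low libraries (adjusted p = 0.0245). Krt1, the suprabasal keratin gene, stood at 517, 2983 and 1269 (WT) and 1403 and 824 (KO) against 2755, 10953 and 5416 (WT) and 12495 and 2125 (KO) CPM and was lower in all 5 pairs, without passing (adjusted p = 0.0562, with the block 0.00144). Without the 2 a6-low libraries 6 members of this list fell and 1 rose.

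No gene of the basal keratinocyte and hemidesmosome list passed, in either direction (0 of 19; 15 higher, median 0.30). The integrin alpha 3 gene Itga3 averaged 326 ± 107 against 113 ± 77.5 CPM (adjusted p = 0.0963) and the integrin beta 4 gene Itgb4 201 ± 42.7 against 94.0 ± 65.0 CPM (adjusted p = 0.192). The pair medians were 1.22 and 1.85 in WT replicate 2 and KO replicate 1, and -0.03, 0.33 and -0.05 in WT replicates 1 and 3 and KO replicate 2. Without the 2 a6-low libraries 12 of the list rose, and since these libraries were set aside by their Itga6, that count is not independent of the list. DESeq2 called 2 of the 19 and the block 2, against 10.9% and 11.8% of all genes.

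Of 14 claudin and tight junction genes 0 rose and 2 fell, against 2.25% and 2.68% of all genes. With the block 2 rose and 3 fell, against 5.68% and 6.15%. Cldn1, whose product seals the granular layer, stood at 15.6, 34.1 and 13.2 (WT) and 10.3 and 18.5 (KO) CPM in CD34+ and 91.8, 163 and 83.7 (WT) and 352 and 139 (KO) CPM in a6-low libraries without overlap (log2 -3.26 ± 0.49, adjusted p = 0.00922). Tjp3, a tight junction scaffold gene, stood at 1.101, 0.946 and 0.902 (WT) and 0.504 and 0.640 (KO) against 3.997, 4.55 and 4.04 (WT) and 6.76 and 4.35 (KO) CPM (log2 -2.67 ± 0.33, adjusted p = 0.00602). Both calls were kept without the 2 a6-low libraries and without the libraries of KO replicate 2, and that of Cldn1 was lost without the CD34+ library of KO replicate 1. Of 12 desmosome genes 10 were lower, 3 of which passed only with the block, and 1, the desmocollin gene Dsc2, rose, at 242, 105 and 206 (WT) and 342 and 183 (KO) against 63.3, 34.2 and 54.5 (WT) and 102 and 60.4 (KO) CPM without overlap (log2 1.77 ± 0.33, adjusted p = 0.0156).

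**Figure D4:**
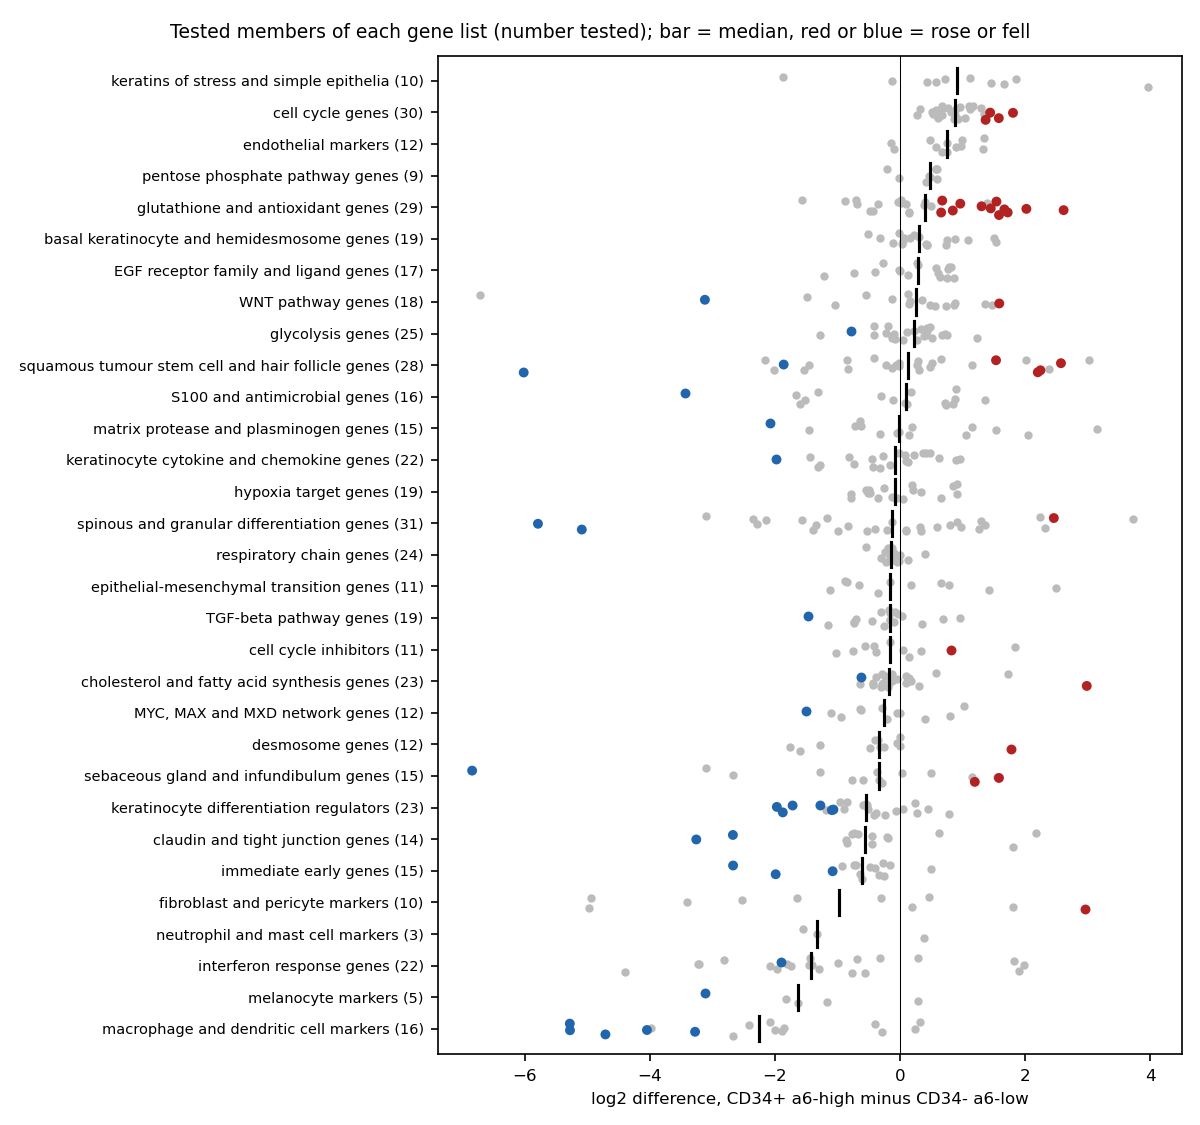
Log2 difference of each tested member of the gene lists (number tested in brackets), with the list median as a black bar and members that rose in red or fell in blue. Cell cycle genes lie to the right of 0 throughout, glutathione genes hold the most red points, and blue points gather among differentiation regulators, immediate early genes and macrophage markers.

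Most immediate early genes, which growth factors and stress induce within minutes, were lower in CD34+ cells. Of 15 tested 0 rose and 3 fell, against 2.68% of all genes that fell (6.15% with the block). Of the 15, 14 were lower, and the median was -0.61. With the block 5 fell, and 1 fell without the CD34+ library of KO replicate 1 or without the libraries of KO replicate 2. Egr2, a zinc finger factor gene, stood at 18.5, 19.6 and 10.7 (WT) and 14.3 and 34.7 (KO) CPM in CD34+ and 83.7, 86.5 and 70.8 (WT) and 189 and 215 (KO) CPM in a6-low libraries without overlap (log2 -2.67 ± 0.35, adjusted p = 0.00691). Fosl2, of the AP-1 factors, stood at 24.1, 31.8 and 22.6 (WT) and 22.3 and 26.6 (KO) against 47.1, 62.8 and 49.3 (WT) and 44.8 and 63.0 (KO) CPM, also without overlap (log2 -1.08 ± 0.19, adjusted p = 0.0153), and Egr3 averaged 1.62 ± 0.865 against 6.63 ± 5.06 CPM (adjusted p = 0.0497). Junb did not overlap between the populations (1434 ± 193 against 2138 ± 181 CPM) and did not pass (adjusted p = 0.0948). Fos, of the same family, averaged 4989.7 ± 1612 against 5578 ± 1795 CPM (adjusted p = 0.799). The labels give no time between tissue and lysis, and the part of cell handling in these levels was not tested.

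Of the glycolysis genes, a pathway that the series title names, 1 passed. Of 25 tested 0 rose and 1 fell, against 2.25% and 2.68% of all genes. Among the 25, 15 were higher, and the median log2 difference was 0.22, with pair medians from 0.08 to 0.29. Their summed level was 16718 to 23649 CPM in CD34+ and 11200 to 15068 CPM in a6-low libraries, without overlap. In CD34- a6-high libraries it was 11420 to 16996 CPM. Genes of high level weigh most in such a sum. The gene that fell was Hk2, a hexokinase gene, at 56.6, 48.5 and 45.5 (WT) and 57.2 and 93.2 (KO) against 78.7, 122 and 74.9 (WT) and 128 and 116 (KO) CPM (log2 -0.78 ± 0.21, adjusted p = 0.0498). Ldha, which encodes a lactate dehydrogenase subunit, stood at 8929, 4872 and 6707 (WT) and 7155 and 4666 (KO) against 4466, 3858 and 3964 (WT) and 4685 and 2604 (KO) CPM, Pkm, the gene of pyruvate kinase, at 4838, 4202 and 5038 (WT) and 3333 and 3926 (KO) against 3129, 3169 and 3337 (WT) and 2735 and 2550.0 (KO) CPM, and Gpi1, the isomerase gene, at 616, 380.2 and 464 (WT) and 447 and 281 (KO) against 309.7, 269.7 and 248 (WT) and 301 and 204 (KO) CPM. These 3 were higher in all 5 pairs and did not pass (adjusted p = 0.0706, 0.0646 and 0.0588). With the block 4 members rose and 1 fell (5.68% and 6.15% of all genes), and with DESeq2 5 rose and 1 fell (4.98% and 5.92%). The call of Hk2 was lost in the fit of the 10 compared libraries, with DESeq2 size factors in edgeR and when any 1 of the 10 libraries was left out. Of simulated 2-fold changes, set in randomly drawn genes and not in these, the test recovered 43%, and RNA levels do not measure flux.

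The pentose phosphate pathway provides NADPH for reductases, and 7 of its 9 genes were higher, with 0 past the threshold (median 0.48) and 3 rises with the block. Taldo1 averaged 644 ± 118 against 434 ± 95.5 CPM (adjusted p = 0.0571) and Pgd 166 ± 64.7 against 111 ± 17.8 CPM (adjusted p = 0.0998). None of 19 hypoxia targets (median -0.09) and none of 24 respiratory chain genes (median -0.14) passed in either direction. Of 23 genes of cholesterol and fatty acid synthesis Fads2 rose and Sc5d, a sterol desaturase gene, fell (95.8 ± 15.7 against 144 ± 7.05 CPM). Of 15 sebaceous gland and infundibulum genes, Defb6 fell and 2 genes of fat storage rose, the lipid droplet gene Plin2 (128 ± 41.1 against 56.4 ± 12.3 CPM) and the nuclear receptor gene Pparg, which stood at 5.55, 3.85 and 3.28 (WT) and 30.1 and 11.1 (KO) against 2.304, 1.44 and 2.44 (WT) and 5.60 and 3.77 (KO) CPM with KO replicate 1 highest. With the block 1 hypoxia target rose, 2 genes rose and 2 fell in the cholesterol and fatty acid list, and 4 rose and 2 fell in the sebaceous gland list. Of all genes 2.25% rose and 2.68% fell, and with the block 5.68% and 6.15%.

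Genes tied to hair follicle stem cells and to squamous tumour stem cells went both ways. Of 28 tested, leaving out Cd34, 4 rose and 2 fell, against 2.25% and 2.68% of all genes (5.68% and 6.15% with the block). In all, 14 were higher and 14 lower. With the block 7 rose and 4 fell, and with 1 library left out 1 to 6 passed, the fewest without the CD34+ library of KO replicate 1. Nrp1, a receptor gene for semaphorins and VEGF, stood at 9.14, 10.7 and 12.3 (WT) and 7.98 and 3.61 (KO) CPM in CD34+ and 1.32, 2.55 and 1.09 (WT) and 0.509 and 1.66 (KO) CPM in a6-low libraries without overlap (log2 2.57 ± 0.42, adjusted p = 0.0111). Twist1, a factor gene of epithelial-mesenchymal transition, stood at 14.7, 9.53 and 14.5 (WT) and 1.68 and 5.16 (KO) against 2.49, 1.997 and 3.27 (WT) and 0.836 and 0.664 (KO) CPM, and its CD34+ library of KO replicate 1 lay inside the a6-low range (log2 2.24 ± 0.44, adjusted p = 0.018). Foxe1, a forkhead factor gene of follicle and thyroid, stood at 50.8, 12.1 and 36.3 (WT) and 47.1 and 45.0 (KO) against 8.70, 5.21 and 7.37 (WT) and 16.4 and 3.77 (KO) CPM (log2 2.20 ± 0.49, adjusted p = 0.0283), and Id2 averaged 58.1 ± 26.7 against 20.6 ± 3.73 CPM (adjusted p = 0.0454).

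The 2 of this list that fell were Postn and Nfatc1. Nfatc1 is known for keeping bulge stem cells quiescent. It stood at 22.5, 12.6 and 14.4 (WT) and 3.99 and 13.7 (KO) against 53.3, 21.7 and 46.5 (WT) and 25.7 and 69.3 (KO) CPM (log2 -1.86 ± 0.40, adjusted p = 0.0245). Of 18 WNT pathway genes the ligand gene Wnt5a rose, at 70.3, 35.5 and 41.5 (WT) and 41.9 and 93.9 (KO) against 17.0, 12.3 and 16.02 (WT) and 28.6 and 20.4 (KO) CPM without overlap (log2 1.58 ± 0.28, adjusted p = 0.0142), and the ligand gene Wnt3 fell, at 1.20, 5.89 and 1.23 (WT) and 0.252 and 1.69 (KO) against 29.3, 5.33 and 11.8 (WT) and 1.71 and 24.3 (KO) CPM. In Wnt3 the pair of WT replicate 2 went the other way (log2 -3.12 ± 0.80, adjusted p = 0.0439). Of 11 further genes of epithelial-mesenchymal transition (Twist1 is counted with the stem cell list) and 17 genes of EGF receptors and ligands none passed. With the block 1 rose and 2 fell of the former and 1 rose and 1 fell of the latter, and 3 WNT pathway genes rose and 2 fell. The shares of all genes were 2.25% and 2.68%, and with the block 5.68% and 6.15%.

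Single genes of other lists fell, where 2.68% of all genes did. Each was the only call among 15 matrix protease, 19 TGF-beta, 12 MYC network, 22 cytokine and 16 S100 and antimicrobial genes, respectively. They are given as single genes and not as results about their lists. The matrix protease gene Mmp2 averaged 9.38 ± 3.58 against 39.4 ± 13.7 CPM, the SMAD repressor gene Skil 39.1 ± 12.8 against 108 ± 46.7 CPM, the MYC family gene Mycl 4.26 ± 1.84 against 12.4 ± 3.40 CPM, the macrophage growth factor gene Csf1 4.86 ± 2.28 against 19.4 ± 15.1 CPM and the siderophore-binding lipocalin gene Lcn2 5.95 ± 4.30 against 59.4 ± 17.4 CPM. In all 5 the libraries did not overlap, and their adjusted p-values lay between 0.00732 and 0.0312. None of 10 keratins of stress and simple epithelia passed, with 8 higher and a median of 0.92, and 3 rose with the block (5.68% of all genes). Krt13 among them ranged from 1.02 to 519.7 CPM in CD34+ libraries.

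The interferon response list had 18 of 22 genes lower and a median of -1.42, and only Irf9 fell (5.17, 8.58 and 7.54 (WT) and 6.17 and 5.85 (KO) against 15.1, 18.9 and 18.5 (WT) and 49.9 and 17.8 (KO) CPM, log2 -1.90 ± 0.36, adjusted p = 0.017). With the block 8 of the 22 fell, against 6.15% of all genes (2.68% without the block). The pair median of that list was -2.49 in KO replicate 1 and -0.69 in KO replicate 2, and -0.26, 0.36 and -0.26 in WT.

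Lists of markers of other cell types were counted as well. Of 16 tested macrophage and dendritic cell markers 14 were lower and 5 fell, against 2.68% of all genes. Those that fell were Lyz2, Tyrobp, C1qa, C1qb and C1qc, and they reached at most 8.11 CPM. The summed level of the 20 markers was 31.5 to 99.1 CPM in CD34+ and 64.6 to 393 CPM in a6-low libraries. In a6-low libraries the class II antigen presentation genes Cd74 (to 155.6 CPM), H2-Ab1 (to 106.2) and H2-Aa (to 73.1) reached the highest levels. In CD34+ libraries they reached 26.6, 32.2 and 11.6 CPM, and none of the 3 passed. Lyz2 stood at 0, 0 and 0 (WT) and 1.55 and 4.57 (KO) against 2.21, 3.22 and 0.641 (WT) and 8.11 and 5.60 (KO) CPM, and C1qb at 0, 0 and 0 (WT) and 1.01 and 1.83 (KO) against 0.423, 6.10 and 0.833 (WT) and 7.09 and 4.73 (KO) CPM. Both were at 0 in the 3 WT CD34+ libraries, so a fitted fold change is not given. The defining marker Adgre1 reached at most 0.229 CPM in CD34+ and 0.545 CPM in a6-low libraries, and Ptprc 1.23 and 0.509 CPM. Cd68 lay at 14.1 to 22.5 CPM in CD34+ and 9.36 to 19.2 CPM in a6-low libraries and did not pass. Of the 16 tested, 2 were higher in CD34+ cells. The medians within pairs lay between -1.55 and -0.39. No marker fell without the CD34+ library of KO replicate 1 or without the libraries of KO replicate 2. The part of such cells in the interferon counts was not tested.

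For the endothelial list 10 of 12 tested markers were higher in CD34+ cells and 0 passed, with sums of 30.4 to 100.03 CPM in CD34+ and 12.8 to 53.0 CPM in a6-low libraries. CD34 is also an endothelial surface protein. Pecam1, which defines endothelium, lay at 1.26 to 3.30 CPM in CD34+ and 0.436 to 2.16 CPM in a6-low libraries, and Cdh5 at most at 0.328 and 0.666 CPM. The markers of highest level in CD34+ libraries were Plvap (3.06 to 39.2 against 1.05 to 12.9 CPM), Ets1 (5.63 to 23.0 against 3.40 to 31.0 CPM) and Egfl7 (8.07 to 14.7 against 1.13 to 5.77 CPM). Of the 12 tested, 2 were lower in CD34+ cells. Of 10 tested fibroblast and pericyte markers Pdpn rose, a gene that keratinocytes also express, at 1.101, 11.9 and 14.3 (WT) and 11.97 and 12.9 (KO) against 1.13, 1.11 and 1.67 (WT) and 1.53 and 1.33 (KO) CPM, with WT replicate 1 of CD34+ cells at the a6-low level (log2 2.95 ± 0.59, adjusted p = 0.0189). The summed level of that list was 134 to 732 CPM in CD34+ (median 385) and 62.1 to 306 CPM in a6-low libraries (median 107). Most of it was Sparc, a matrix protein gene, at 78.3 to 670.1 against 17.2 to 222 CPM, and Acta2, the smooth muscle actin gene, at 38.4 to 163 against 30.1 to 83.1 CPM, and neither passed. Col1a1, which defines fibroblasts, reached at most 0.0840 CPM in CD34+ and 1.66 CPM in a6-low libraries, and Lum and Dpt had no count in any of the 10. With the block 1 endothelial and 2 fibroblast markers rose, where 5.68% of all genes did (2.25% without the block).

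Of 5 tested melanocyte markers Mitf fell, against 2.68% of all genes, with 7 counts in CD34+ and 55 in a6-low libraries. The marker sums were 1.92 to 6.70 against 1.83 to 144 CPM, the last in KO replicate 1. None of 3 tested neutrophil and mast cell markers, 2 of T, natural killer and B cells and 2 of skeletal muscle and fat passed, and Cd3e, Cd3g, Cd8a, Elane, Cpa3 and Adipoq had no count. No erythroid marker had counts enough to be tested. What these cells contributed to the genes above was not tested.

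**Figure D5:**
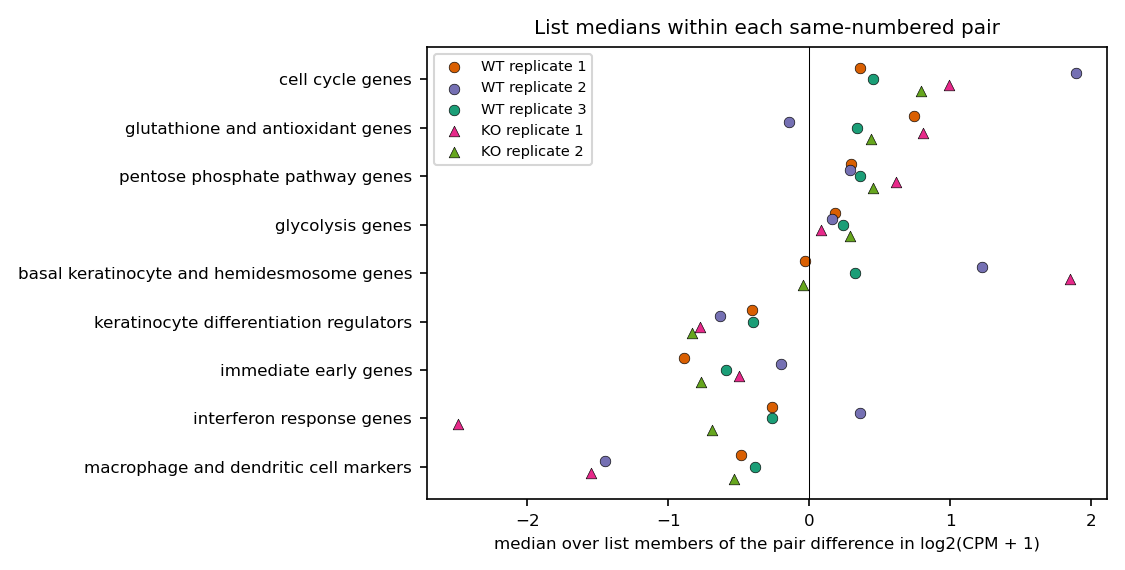
Median over list members of the difference in log2(CPM + 1) within each pair of same-numbered libraries, for 9 gene lists, circles WT and triangles KO. All 5 pairs lie to the right of 0 for cell cycle genes and to the left for differentiation regulators, immediate early genes and macrophage markers, and WT replicate 2 lies to the left of 0 for glutathione genes.

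Taken one genotype at a time, the contrast gave no call. In the 3 WT pairs 0 genes passed (0%) with 1817 at an unadjusted p under 0.05, and in the 2 KO pairs 0 passed with 1652 (edgeR). With the block 281 genes passed in WT (1.92%), 164 higher (1.12%) and 117 lower (0.799%), and 268 in KO (1.83%), 96 higher (0.655%) and 172 lower (1.17%). Without the 2 a6-low libraries with high Itga6, 78 genes passed in WT (0.508%), 63 higher (0.410%) and 15 lower (0.0976%), and 104 in KO (0.677%), 80 higher (0.521%) and 24 lower (0.156%). DESeq2 called 415 in WT (2.83%), 225 higher (1.54%) and 190 lower (1.30%), and 441 in KO (3.01%), 152 higher (1.04%) and 289 lower (1.97%). Whether the difference between the ends of the sort itself differed between KO and WT was tested by the interaction. No gene passed in edgeR, with 187 at an unadjusted p under 0.05, and 0 passed with the block or DESeq2.

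The 3 genes of smallest p in the interaction were Grap, Pmel and Pcdhb18, each with an adjusted p of 1. Pmel, a melanosome gene, stood at 2.87, 1.89 and 1.39 (WT) and 0.756 and 0.731 (KO) CPM in CD34+ and 0.564, 1.33 and 1.22 (WT) and 13.4 and 1.95 (KO) CPM in a6-low libraries, where KO replicate 1 was the only one above 2 CPM. Grap and Pcdhb18 stayed under 1 CPM in all 10 libraries. Chil4 had a log2 difference of -3.37 in WT and -8.06 in KO, Sprr2a3 of -2.63 and -5.43, and Gsto1 of 1.55 and 1.61, none of them different between genotypes by this test (adjusted p = 1), which with 2 KO libraries a population does not show that the genotypes are alike.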

How the data were processed

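Per the labels' protocols, RNA of sorted cells was made into cDNA with the SMART-Seq v4 kit, which does not mark strand. The authors deposited raw counts per Ensembl gene. The submitters' processing notes name STAR 2.3.0, Picard 1.100, HTSeq 0.6.0 and the mouse build mm9, with no roles. No annotation release is stated there or in the labels. Reads of overlapping or antisense genes therefore cannot be told apart, and those of near-identical copies may have been dropped or split.

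Rows that name no gene (5 a library) were dropped. They held reads with no unique alignment (29.9 to 38.0% of all records counted in a library), no feature (2.77 to 5.13%) or an ambiguous one (1.86 to 2.20%). Of 37583 genes, 32860 (87.4%) took a symbol from GENCODE M21, used for names only. Genes that passed filterByExpr (14652) were fitted with edgeR 4.0.16 in R 4.3.3, with TMM scaling, in 1 model of all 15 libraries with a coefficient per genotype and population (9 residual degrees of freedom). The contrast was the mean of the WT and the KO difference, and calls had a Benjamini-Hochberg adjusted p under 0.05. SE is the size of the log2 difference divided by the square root of its F.

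The replicate block (6 residual degrees of freedom) is used beside the unblocked fit because libraries of 1 genotype and number deviated together: the correlations of their deviations from the group means were 0.589, 0.273 and 0.377 in WT and 0.462 in KO, where both pairs mirror each other. This pairing comes from the data, not the labels. No replicate pair agreed within sampling noise (ratio of chi-square to its degrees of freedom, 38.5 to 306). DESeq2 1.42.0, other filters and scalings, a fit of 10 libraries and the omission of each library were run as alternatives, and the script was tested on simulated data.

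The genes named are, with level at least 2 on the log2 CPM scale and the same sign in all 5 pairs, the 12 largest rises and 12 largest falls that passed, leaving out predicted genes and pseudogenes, then up to 4 members of smallest p of each list, and 3 for the interaction. Further list members were chosen after their values were seen. The members compared and the lists (623 genes, of which 617 were matched and 534 tested, in 26 pathway and 8 marker lists) were chosen with earlier results of these data known. Promoters are from RefSeq (GRCm38.p6), matched by symbol. Some genes that passed are not reported here.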

Additional observations from a re-analysis of the deposited data

Results flagged for a closer look

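In all, 3 values stood apart from the other 4 libraries of their population by Dixon's 95% criterion on the log2(CPM + 1) scale, over WT and KO libraries alike. All 3 belong to the a6-low library of KO replicate 1. Cxcl9, the chemokine gene induced by interferon gamma, stood at 234 CPM there and at 6.73 to 10.8 CPM in the other 4 a6-low libraries. The summed melanocyte markers stood at 144 CPM against 1.83 to 3.77 CPM. The summed erythroid markers stood at 0 against 0.188 to 0.222 CPM, levels of a few counts that carry little weight. In 68 groups of 5 examined, 3 such gaps were found, where chance gives about 1 in 20 groups, or 3.4. Without this library the log2 differences of the melanocyte genes Dct and Tyrp1, neither of which passed, changed sign, and 515 genes passed in the contrast of the ends of the sort.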

How the results depend on the processing

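Of 722 genes called, 720 were also called by DESeq2, 717 with genotype and replicate number as a block and 710 with DESeq2 size factors in edgeR, and no called gene that was still tested changed direction in any setting. The count of calls was 1596 with DESeq2, 1900 with no filter on low counts, 422 in the fit of the 10 compared libraries, 1733 with the replicate block and 116 without the libraries of KO replicate 2, and it lay between 41 and 691 when 1 library was left out. In that last case a population is left with 1 KO library, or 2 WT libraries, and a lone library is assumed to vary like the other groups. For WT alone, 0 genes at first, the count was 415 with DESeq2, 764 with no filter, 281 with the block, 78 without the 2 a6-low libraries with high Itga6, 17 without the libraries of KO replicate 2 and 0 to 11 with 1 library left out. For KO alone, also 0, it was 441, 755, 268 and 104 in the first 4 of these settings and 0 to 4 with 1 library left out. The difference between genotypes gave 40 genes with no filter, and 0 in edgeR with or without the block and in DESeq2. The cause of these shifts was not tested.

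Among list members none called reversed. Values that changed sign were those of Dct (log2 difference -2.99 to 0.79 with 1 library left out), Tyrp1 (-4.26 to 1.36), Cxcr2 (-0.053 to 0.93) and Mylpf (-0.21 to 0.42, and -0.31 without the 2 a6-low libraries and -0.01 without the libraries of KO replicate 2). Without the 2 a6-low libraries Plau stood at 0.87 and Bmp4 at 0.084, both reversed. Both exclusions were chosen after the values were seen. In a simulation of this contrast with 14335 genes the test recovered 43% of 2-fold and 86% of 4-fold changes. In such data 2-fold changes were thus often missed at this number of libraries. The changes were set in randomly drawn genes above a minimum level. Simulated libraries were independent of one another, whereas the real libraries of 1 genotype and number deviated together, so the shares may differ in the real data.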

Other observations

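The groups that follow were put together after the calls were known, so their counts are descriptions with no test, beside 2.25% of all genes that rose and 2.68% that fell. Of 38 tested genes of NF-kappaB signalling 14 fell and 0 rose, 34 were lower, and the median was -0.85. Rela, a subunit that activates transcription, averaged 116 ± 9.33 against 283 ± 167 CPM. The other subunit genes Rel, Relb, Nfkb1 and Nfkb2 were lower and did not pass. The adaptor gene Myd88 averaged 68.7 ± 3.84 against 122 ± 23.2 CPM and the inhibitor of apoptosis gene Birc3 11.4 ± 3.73 against 43.0 ± 21.1 CPM. The peptidoglycan sensor gene Nod2 averaged 22.2 ± 7.45 against 70.6 ± 30.1 CPM. Negative regulators fell too, among them Irak3 (3.09 ± 0.924 against 13.4 ± 7.37 CPM) and Tnip1 (7.22 ± 1.02 against 19.8 ± 8.97 CPM). Of 16 genes of the interleukin 6 family of receptors and STAT3 signalling 4 fell. Stat3 averaged 138 ± 15.7 against 288 ± 38.7 CPM, and the receptor genes Osmr and Lifr 8.31 ± 1.87 against 26.8 ± 15.7 CPM and 2.18 ± 1.26 against 12.1 ± 4.08 CPM.

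Of 13 genes of class I antigen presentation 4 fell, among them H2-K1 (398 ± 199.5 against 1086 ± 308 CPM), B2m (596 ± 296 against 1659 ± 872 CPM) and Nlrc5, the activator of this gene set (2.84 ± 1.39 against 10.0 ± 2.45 CPM). Of 28 genes of autophagy and the energy sensor AMPK 6 fell and 1 rose, 21 were lower and 7 higher, and the median was -0.33. The kinase subunit gene Prkaa2 averaged 1.49 ± 0.391 against 7.73 ± 3.58 CPM. The related subunit gene Prkaa1, at a higher level, averaged 36.8 ± 6.41 against 33.8 ± 8.19 CPM and did not pass (adjusted p = 0.787, edgeR). All 4 tested Serpinb3 genes and 5 of 11 Skint genes fell, and Ftl1, the ferritin light chain gene, rose (2036 ± 496 against 757 ± 318 CPM).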
